A study of Rattus norvegicus with 6 samples.

Results

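The genes described here are the cytochrome P450 genes of families 2, 3 and 4 in rat liver, together with Por, which encodes the reductase that passes them electrons. They were taken as the protein-coding genes of the count table whose symbol begins with Cyp2, Cyp3 or Cyp4 followed by a letter, plus Por, with 10 or more counts in at least 3 libraries. Of 54 such genes, 50 met this minimum, among 20104 genes in the table and 13872 that were tested. The members comprised 28 genes of family 2, 7 of family 3 and 14 of family 4, in 16 subfamilies, and Por. Every member had 10 or more counts in some library of each dressing. Among Quik-clot libraries, Cyp4f18 had them only in replicate 3, and among AKOC libraries, Cyp2c24 had them only in replicate 1. The 4 genes below the minimum, Cyp2ab1, Cyp2ac1, Cyp4f40 and Cyp4x1, reached at most 8 counts in any library and are not described further.

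Liver trauma in rats was covered with a haemostatic dressing, and the repaired tissue was taken on day 14 for RNA sequencing. The dressing was AKOC in 3 libraries and Quik-clot, the control, in the other 3, and the study's title names a material of kaolin scales anchored on cotton. All 6 libraries came from injured and dressed liver, and the labels give no strain, age, sex, genotype, hour of collection or lobe. Nor do they tie libraries to animals, and p-values therefore describe only how these samples spread, which may be technical.

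Cytochrome P450 enzymes are haem proteins of the endoplasmic reticulum that insert an oxygen atom into drugs, steroids, retinoids and fatty acids. They draw electrons from NADPH through the reductase encoded by Por, and some reactions also use cytochrome b5. In rat liver, many members are set by nuclear receptors that sense foreign compounds or fatty acids, and several are set by the pattern of growth hormone release, which differs between males and females. Many members lie in clusters of close copies, and reads that fit several near-identical copies could be lost or assigned to either, which makes the values of such members uncertain.

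Totals per library ran from 40402312 to 41455378 counts. One gene's level is expressed in CPM, its counts per 1000000 after trimmed mean of M values (TMM) scaling, and levels of different genes are compared as FPKM, which is also scaled to transcript length. A single count was worth 0.0218 to 0.0270 CPM. Over genes in general, the 2 most alike libraries came from different dressings. They were Quik-clot replicate 2 and AKOC replicate 1, with a chi-square of 72.3 per degree of freedom between their counts. Pairs of libraries within a dressing had 142 to 400. Tissue identity was checked on 8 hepatocyte markers, which were all present in the tests and summed to 110223 to 161957 CPM with Quik-clot and 125387 to 191853 CPM with AKOC. The acute phase genes A2m and Lcn2 stood at 2403 and 3166 CPM in Quik-clot replicate 3, against at most 91.4 and 262 CPM in the other libraries. Of 18 tested acute phase genes, 2 had positive and 16 negative log2 fold changes, with 0 at an unadjusted p under 0.05 in either direction, and they summed to 48427 to 152892 CPM with Quik-clot and 57367 to 113816 CPM with AKOC. Neutrophil markers (5) summed to 8.07 to 118 CPM with Quik-clot and 12.1 to 48.5 CPM with AKOC, and T and NK cell markers (7, of which 6 were tested, 3 of them lower at an unadjusted p under 0.05) to 11.7 to 33.6 and 8.19 to 10.9 CPM. Kupffer cell and macrophage markers (9) summed to 833 to 1442 and 706 to 1043 CPM. Of these, 8 had negative log2 fold changes, and 2 were lower at an unadjusted p under 0.05. No marker list had a gene past the edgeR adjustment. Sinusoidal endothelial markers were negative in 6 of 6 genes, 2 of them at an unadjusted p under 0.05, and summed to 365 to 428 and 328 to 359 CPM without overlap. Red cell markers (5) summed to 49.0 to 949 and 728 to 1514 CPM. Over all genes tested, 6.78% were higher and 5.69% lower at an unadjusted p under 0.05, the background for each gene list in this report. The part of these cell types in the P450 values was not tested. In bulk tissue, fewer cells of a type and less RNA per cell cannot be told apart.

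The P450 members together made up 2.26%, 2.30% and 1.02% of all FPKM in Quik-clot replicates 1, 2 and 3 and 2.26%, 1.66% and 2.04% in AKOC replicates 1, 2 and 3. The dressings overlapped, and the lowest share was in Quik-clot replicate 3, the library with the high acute phase genes, whose part in this was not tested. The most abundant members by mean FPKM were Cyp2e1 (1812), Cyp2c7 (1447), Cyp3a2 (1271), Cyp2c22 (776), Cyp2c23 (633) and Cyp3a23-3a1 (582). The scarcest were Cyp4f18 and Cyp4f37, at 0.0991 and 0.110 FPKM. Por averaged 58.0 FPKM and had rank 22 of 50.

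**Figure D1:**
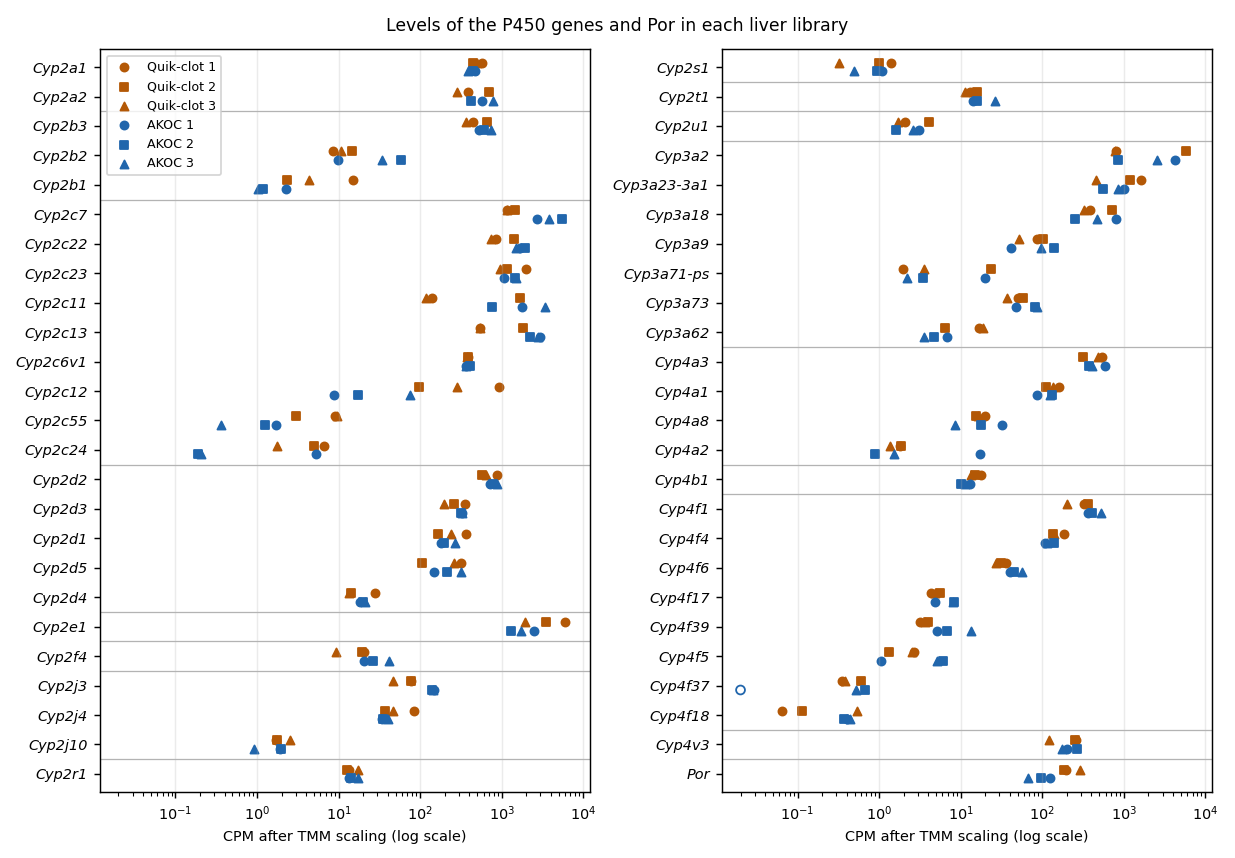
Level of each of the 50 members in each library, in CPM on a log axis, grouped by subfamily (grey lines) and sorted by mean FPKM within it, with Quik-clot in orange and AKOC in blue. Cyp2c7, Cyp2c13, Cyp2c22 and Cyp2j3 lie higher in all AKOC libraries and Cyp2c12, Cyp2c55 and Por lower. The open symbol at the left edge is Cyp4f37 with 0 counts in AKOC replicate 1.

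The gene that led the pool differed between libraries. It was Cyp2e1 in Quik-clot replicates 1 and 3, at 34.0% and 19.5% of summed P450 FPKM, and Cyp3a2 in Quik-clot replicate 2 and AKOC replicate 1, at 23.9% and 18.4%. In AKOC replicates 2 and 3 it was Cyp2c7, at 31.1% and 18.2%. The Cyp2c subfamily held 27.3%, 29.7% and 33.9% of the pool with Quik-clot and 38.9%, 58.67% and 50.01% with AKOC, with no overlap. Cyp2e1 held 34.0%, 18.2% and 19.5% against 13.2%, 8.07% and 8.94%, again with no overlap. Shares of a pool are tied to each other, so a larger Cyp2c share lowers the others without any change in them.

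**Figure D2:**
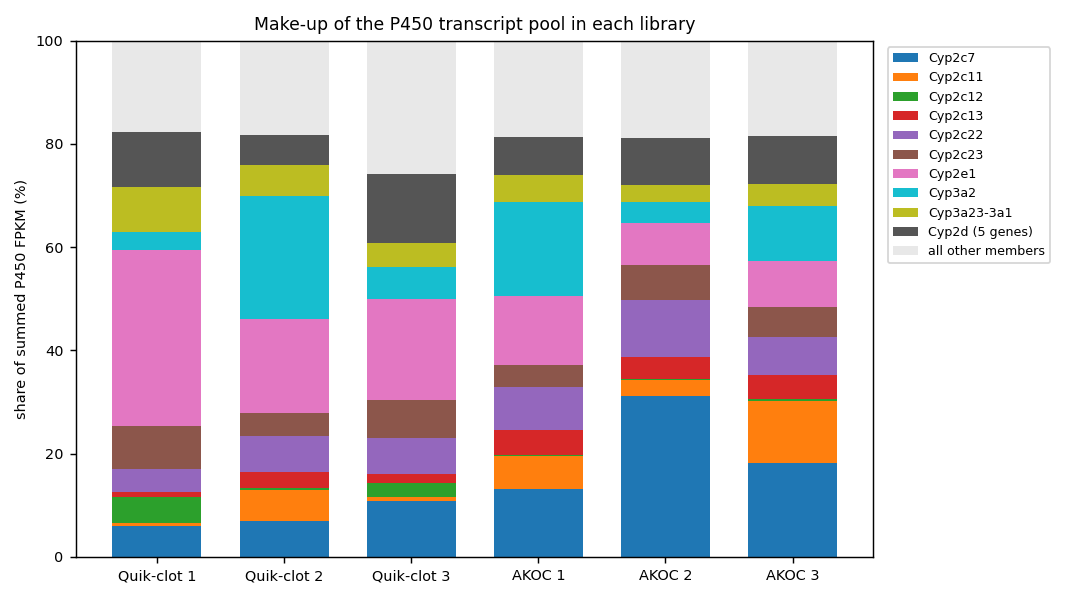
Share of summed P450 FPKM (percent) held by 9 single genes, by the 5 Cyp2d genes together and by all other members, in each of the 6 libraries. Cyp2c7 takes 13.2% to 31.1% with AKOC and 6.05% to 10.8% in the Quik-clot libraries.

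The comparison asked which P450 genes differed between livers treated with AKOC and with Quik-clot. No member passed the Benjamini-Hochberg adjustment over all 13872 genes in edgeR's quasi-likelihood test, with adjusted p from 0.241 (Cyp2j3) to 0.991 (Cyp2d5). The background was the same, with 0% of all genes called in either direction. At an unadjusted p under 0.05, 7 members were higher after AKOC (14% of the 50, against 6.78% of all genes tested) and 6 were lower (12%, against 5.69%). The higher ones were Cyp2j3, Cyp2c7, Cyp4f6, Cyp4f39, Cyp2c13, Cyp2b2 and Cyp2c22, and the lower ones Por, Cyp2c55, Cyp3a62, Cyp2c12, Cyp2b1 and Cyp4b1. Without Quik-clot replicate 2, the higher count was 13, and the share of all genes rose as well, to 9.80%. Of the 13 members, 9 stayed under 0.05 whichever library was left out, and Cyp2b2, Cyp2c13, Cyp2c22 and Cyp4b1 did so in 3, 3, 2 and 2 of the 6 such fits. The same share was not counted over all genes, and these fits reuse the libraries by which the 13 were picked. The 3 AKOC libraries all lay above the 3 Quik-clot libraries in 7 members (14%, against 9.53% of all genes) and all below in 5 (10%, against 8.85%).

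Of the 50 members, 28 had positive and 22 negative log2 fold changes, AKOC over Quik-clot, with a median of 0.06 against -0.01 over all genes tested. The family thus did not move one way. When scaled by library totals alone, 24 were positive and the median was -0.02. Over all genes that scaling turned the split at an unadjusted p under 0.05 from 941 higher and 790 lower to 452 higher and 750 lower. DESeq2, the other count test run, called 3 members higher (1.34% of all genes with an adjusted p were called higher) and 4 lower (background 0.679%). These were Cyp2c7, Cyp2j3 and Cyp2c13, and Cyp2c55, Por, Cyp2b1 and Cyp3a62, with DESeq2 adjusted p from 5.95e-07 (Cyp2c7) to 0.0421 (Cyp2c13). Over all alternatives, the adjusted p of Cyp2c7 ran from 5.95e-07 to 0.599 and that of Cyp2c13 from 0.0421 to 0.654. With 3 libraries on each side, the smallest two-sided p of an exact permutation test is 0.1.

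**Figure D3:**
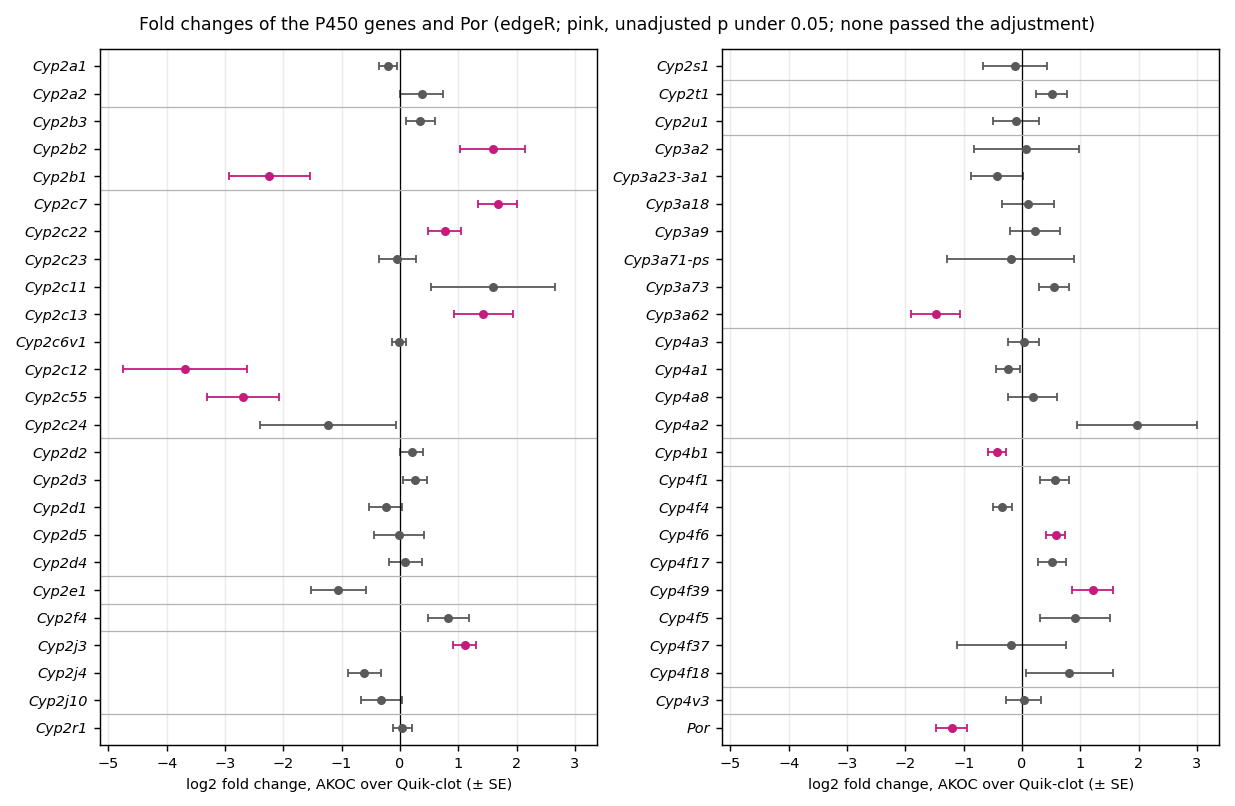
Log2 fold change of each member, AKOC over Quik-clot, with its standard error from edgeR, grouped by subfamily. Pink points had an unadjusted p under 0.05 (7 to the right, 6 to the left) and none passed the adjustment over all genes.

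Por, the reductase shared by all microsomal P450 enzymes, had 194, 187 and 288 CPM with Quik-clot and 126, 97.0 and 67.2 CPM with AKOC. All AKOC values lay below all Quik-clot values. The log2 fold change was -1.20 ± 0.27 (SE; edgeR unadjusted p = 0.00253, adjusted p = 0.281; DESeq2 adjusted p = 0.00247), and it lay between -1.44 and -0.97 in all alternatives tried. Summed P450 FPKM was 156, 175 and 58.1 times the Por FPKM with Quik-clot and 252, 287 and 484 times with AKOC. This ratio did not overlap between dressings, and it was lowest in Quik-clot replicate 3.

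Electron carriers, haem genes and the microsomal epoxide hydrolase Ephx1 were read beside Por as a list of 11 genes. Of these, 4 were higher (Cyb5r3, Fech, Pgrmc2 and Ephx1, the last named after its values were seen) and 1 lower (Hmox1) at an unadjusted p under 0.05. Over all genes tested, 6.78% were higher and 5.69% lower at that p. None of the 11 passed the edgeR adjustment, and their median log2 fold change was 0.14 (-0.01 over all genes). Cyb5r3, the NADH reductase of cytochrome b5, had 165, 158 and 155 CPM with Quik-clot and 244, 261 and 311 CPM with AKOC (log2 fold change 0.77 ± 0.13; edgeR adjusted p = 0.234). Its groups did not overlap, nor did those of Fech, the last enzyme of haem synthesis, at 32.1 to 43.3 against 52.9 to 75.0 CPM. Cyb5a, which encodes cytochrome b5, overlapped between dressings at 518 to 809 and 460 to 672 CPM. Alas1, the first enzyme of haem synthesis, overlapped too, at 161 to 238 and 108 to 219 CPM. Hmox1, which breaks haem down, lay at 58.3 to 86.3 CPM with Quik-clot and 33.0 to 51.2 CPM with AKOC. Pgrmc2, a haem-binding membrane protein, lay at 79.7 to 110.3 and 118 to 166 CPM.

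Among 17 tested nuclear receptors and liver factors that control P450 genes, 0 were higher and 5 lower at an unadjusted p under 0.05. The shares over all genes tested were 6.78% and 5.69%. The list median was -0.24, and none passed the edgeR adjustment. Nr1i2, the xenobiotic receptor PXR, had 154, 93.6 and 117 CPM with Quik-clot and 79.2, 80.3 and 71.1 CPM with AKOC (log2 fold change -0.66 ± 0.18; edgeR adjusted p = 0.306). Hnf4a, a master factor of hepatocytes, had 474, 439 and 483 against 372, 311 and 369 CPM. Neither gene overlapped between dressings, nor did Nr5a2 (65.5 to 71.1 against 48.0 to 56.2 CPM) or the fatty acid receptor Ppara (91.3 to 142 against 58.1 to 84.6 CPM). Of all genes tested, 8.85% were likewise lower after AKOC without overlap. Nr1i3, the phenobarbital-responsive receptor CAR, overlapped, with 47.8, 24.5 and 25.9 against 27.1, 14.3 and 12.9 CPM. Dbp, a clock-driven factor of the family that is known to act on Por and several Cyp2 genes, had 21.9, 28.3 and 20.2 CPM with Quik-clot and 8.33, 3.42 and 3.55 CPM with AKOC. The clock list as a whole had 3 of 15 tested genes higher and 8 lower at an unadjusted p under 0.05 (Bmal1 and Npas2 higher, Dbp and Tef lower), with a median of -0.35. The shares over all genes tested were 6.78% higher and 5.69% lower. What part the clock list had in the P450 values was not tested.

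**Figure D4:**
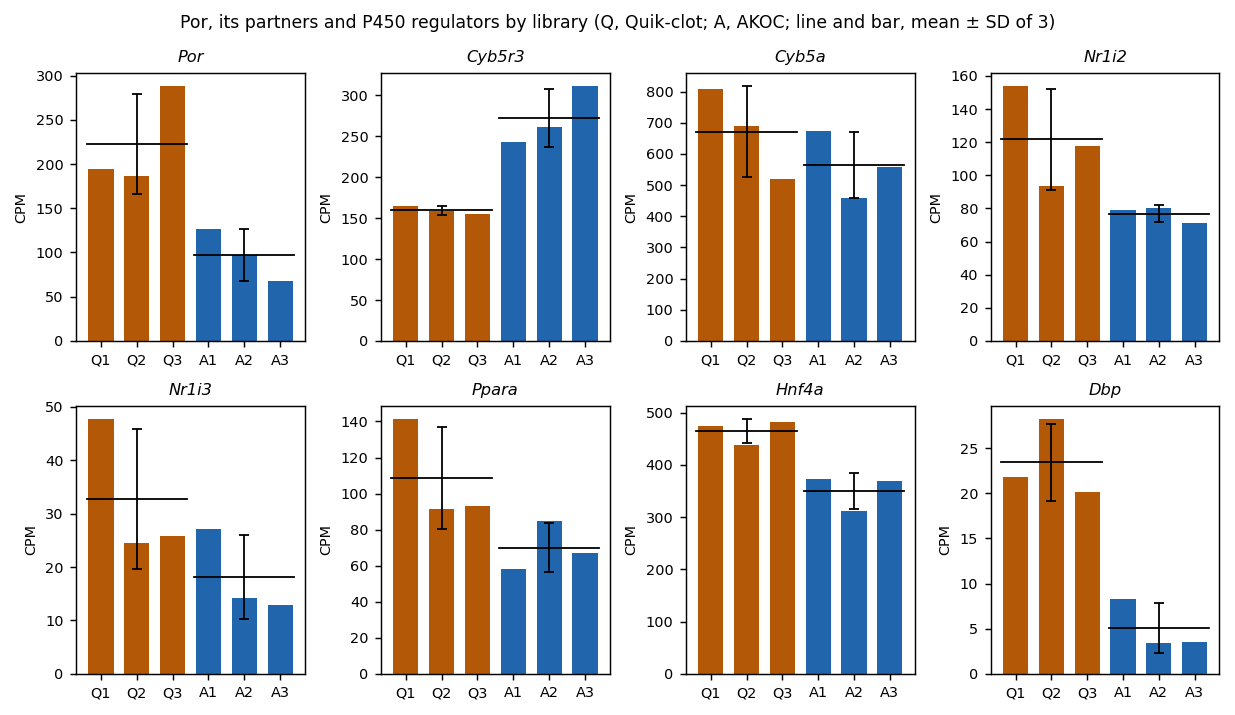
CPM of Por, Cyb5r3, Cyb5a and 5 regulators in each library (bars, with axes from 0), with the mean and SD of the 3 libraries of each dressing (black). Por, Nr1i2, Ppara, Hnf4a and Dbp are lower in all 3 AKOC libraries, Cyb5r3 is higher in all 3, and Cyb5a and Nr1i3 overlap.

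Several forms of the Cyp2c, Cyp2a and Cyp3a subfamilies depend on sex in the rat. The promoters of 3 of them are shown because these Cyp2c genes differ in their sex dependence. Cyp2c11 is the main P450 of adult male liver, where pulsed growth hormone acts through STAT5b. Cyp2c12 is the steroid hydroxylase of female liver, where growth hormone is continuous and the factor HNF6 acts at its promoter. Cyp2c7, a retinoic acid hydroxylase, is more abundant in females. The windows run from 250 bases before to 50 after the annotated start and come from RefSeq on the GRCr8 build (chr1:246174966-246175265, forward strand, for Cyp2c11, chr1:248676985-248677284, reverse strand, for Cyp2c12 and chr1:247966144-247966443, forward strand, for Cyp2c7). Capitals mark matches to TATAAA (core promoter box), ATTGATTT (HNF6), TGTTTAC (FOXA), TTGCNNAA (C/EBP), TTATGTAA (D-box) and TTCNNNGAA (STAT), searched on both strands.
Cyp2c11: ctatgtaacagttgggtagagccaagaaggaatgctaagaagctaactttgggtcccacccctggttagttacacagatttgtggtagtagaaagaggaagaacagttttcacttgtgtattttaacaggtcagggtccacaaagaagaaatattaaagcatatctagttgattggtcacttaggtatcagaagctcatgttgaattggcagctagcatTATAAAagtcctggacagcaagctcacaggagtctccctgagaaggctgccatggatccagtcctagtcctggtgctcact
Cyp2c12: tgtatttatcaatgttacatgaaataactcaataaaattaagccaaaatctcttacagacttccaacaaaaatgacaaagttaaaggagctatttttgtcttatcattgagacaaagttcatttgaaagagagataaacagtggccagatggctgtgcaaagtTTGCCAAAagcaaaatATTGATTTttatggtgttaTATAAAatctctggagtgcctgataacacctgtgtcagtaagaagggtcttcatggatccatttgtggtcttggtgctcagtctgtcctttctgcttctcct
Cyp2c7: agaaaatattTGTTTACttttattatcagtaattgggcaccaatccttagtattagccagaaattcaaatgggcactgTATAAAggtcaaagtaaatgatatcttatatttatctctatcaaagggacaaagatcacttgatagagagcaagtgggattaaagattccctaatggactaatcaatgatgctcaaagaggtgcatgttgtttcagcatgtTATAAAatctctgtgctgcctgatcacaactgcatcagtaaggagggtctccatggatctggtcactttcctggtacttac
Each of the 3 windows held a core promoter box, which 14.2% of all 33469 promoter windows hold. The HNF6 letters occurred in Cyp2c12 alone among the 51 windows of the 44 members with an entry (1.14% of all windows). FOXA letters occurred in 8 member genes, Cyp2c7 and Cyp3a2 included (3.78% of all windows), and C/EBP letters in 9, Cyp2c12 included (10.6%). C/EBP matches can overlap D-box matches. STAT letters occurred in 5 member genes and in none of the 3 windows shown (8.87% of all windows). These are matches of letters and not binding sites.

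Cyp2c11 stood at 140, 1694 and 118 CPM in Quik-clot replicates 1, 2 and 3 and at 1765, 767 and 3376 CPM in AKOC replicates 1, 2 and 3. Quik-clot replicate 2 lay among the AKOC libraries, and replicates 1 and 3 lay below all others. Its log2 fold change was 1.60 ± 1.07 (edgeR unadjusted p = 0.178, adjusted p = 0.559), and it was 3.93 without Quik-clot replicate 2. Cyp2c12 went the other way, with 918, 97.0 and 283 CPM with Quik-clot and 8.68, 17.3 and 74.7 CPM with AKOC. All AKOC values were lower, although Quik-clot replicate 2 and AKOC replicate 3 lay close together. The log2 fold change of Cyp2c12 was -3.69 ± 1.06 (edgeR unadjusted p = 0.00989, adjusted p = 0.312), or 12.9-fold lower. It was -2.50 without Quik-clot replicate 1, and leaving out AKOC replicate 3 gave -5.06. Cyp2c11 exceeded Cyp2c12 by 12.5-fold in FPKM in Quik-clot replicate 2 and by 146-fold, 31.8-fold and 32.4-fold with AKOC. In Quik-clot replicates 1 and 3 the order was turned, with Cyp2c12 at 9.13 and 3.35 times Cyp2c11.

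Cyp2c13, another male-specific form and the neighbour of Cyp2c12 in the RefSeq gene order, had 549, 1845 and 546 CPM with Quik-clot and 2922, 2253 and 2758 CPM with AKOC. The groups did not overlap, and Quik-clot replicate 2 was again the nearest to AKOC. The log2 fold change was 1.43 ± 0.51 (edgeR unadjusted p = 0.0246, adjusted p = 0.361). It was 2.27 without Quik-clot replicate 2, and the unadjusted p was 0.0725, 0.0624 and 0.0585 without Quik-clot replicate 1, Quik-clot replicate 3 and AKOC replicate 1 (edgeR). Cyp3a2, a male form of adult liver, had 802, 5762 and 780 CPM against 4322, 863 and 2547 CPM, so the high libraries were Quik-clot replicate 2 and AKOC replicates 1 and 3. Its log2 fold change was 0.07 ± 0.90 (edgeR adjusted p = 0.980), 1.70 without Quik-clot replicate 2, but -0.52 when AKOC replicate 1 was omitted. Cyp3a18, also male-dominant, had 386, 712 and 325 against 799, 255 and 477 CPM. Cyp2a2, a male-specific testosterone hydroxylase, had 388, 708 and 286 against 576, 426 and 785 CPM. As with Cyp2c11 and Cyp3a2, Quik-clot replicate 2 was the highest of Quik-clot and AKOC replicate 2 was the lowest of AKOC. Their log2 fold changes were 0.10 ± 0.45 and 0.37 ± 0.37 (edgeR adjusted p = 0.933 and 0.687), the former of either sign when single libraries were left out (-0.38 to 0.52).

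**Figure D5:**
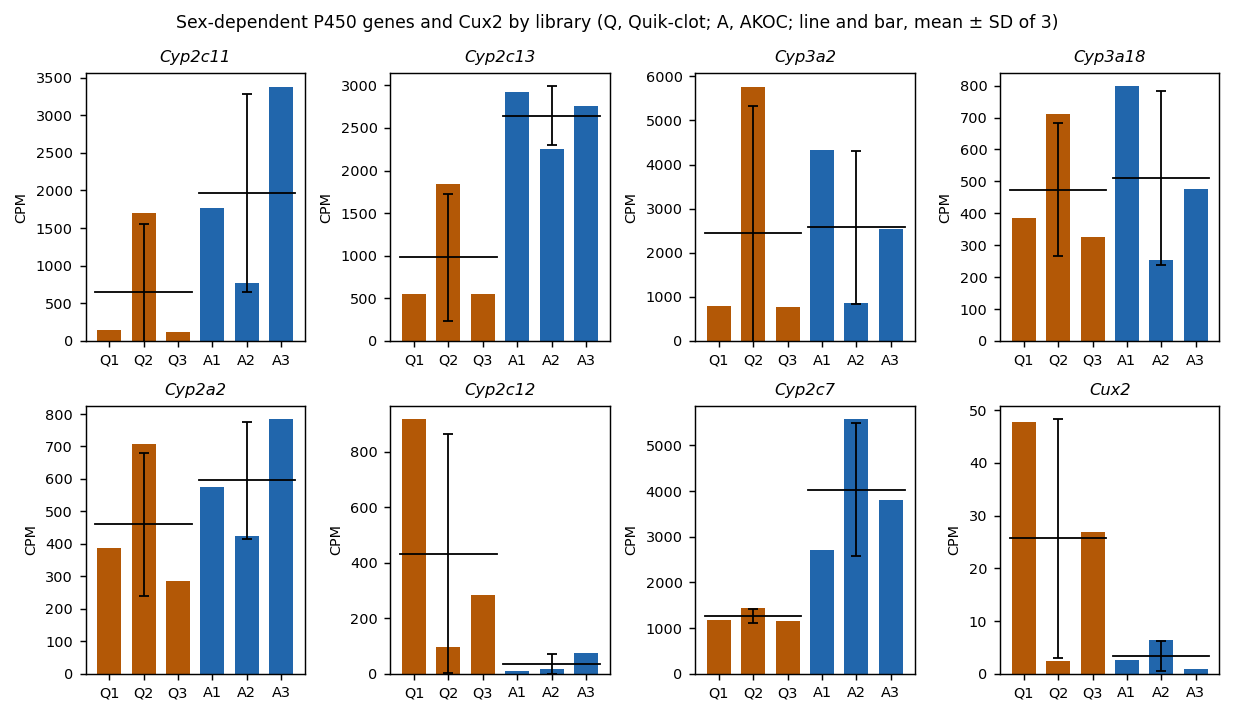
CPM of 7 sex-dependent P450 genes and of Cux2 in each library (bars, with axes from 0), with the mean and SD of the 3 libraries of each dressing (black, cut at 0 where the SD exceeds the mean). Cyp2c11 and Cyp3a2 are low in Quik-clot 1 and 3 and lowest of AKOC in AKOC 2, Cyp2c12 and Cux2 are highest in Quik-clot 1 and 3, and Cyp2c7 is higher in all AKOC libraries.

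Cyp2c7 was the most abundant member after AKOC, with 1178, 1447 and 1160 CPM with Quik-clot and 2700, 5585 and 3809 CPM with AKOC. All AKOC libraries lay above all Quik-clot libraries. Its log2 fold change was 1.68 ± 0.34 (edgeR unadjusted p = 0.00149, adjusted p = 0.279; DESeq2 adjusted p = 5.95e-07), and it lay between 1.36 and 1.90 in all alternatives tried. Unlike the male forms, it was highest in AKOC replicate 2. Cyp2c22, also a retinoic acid hydroxylase, had 864, 1416 and 742 against 1684, 1940 and 1523 CPM (log2 fold change 0.77 ± 0.28; edgeR unadjusted p = 0.0299, adjusted p = 0.366), without overlap. Cyp2a1, a testosterone hydroxylase more abundant in females, had 568, 450 and 492 against 467, 452 and 390 CPM, and Cyp3a9, another female-predominant form, had 86.0, 102 and 52.0 against 41.1, 140 and 97.6 CPM. Both overlapped, with log2 fold changes of -0.21 ± 0.15 and 0.22 ± 0.43 (edgeR adjusted p = 0.590 and 0.853). Of these female-predominant forms, Cyp2a1 had a negative value, as Cyp2c12 did, and Cyp2c7 and Cyp3a9 had positive ones.

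Genes of sex and growth hormone outside the P450s were read in the same libraries. In the sex list, 9 of 9 tested genes had positive log2 fold changes (48.0% of all genes tested), with a median of 0.42. Of these, 1 (Srd5a1, whose groups overlapped) was higher and 0 lower at an edgeR unadjusted p under 0.05, and none passed the edgeR adjustment. Ddx3y, also on the Y chromosome, was scarce, at 0.108 to 0.370 and 0.359 to 0.495 CPM. The Y-linked Eif2s3y stood at 30.8 to 41.8 CPM with Quik-clot and 40.5 to 43.0 CPM with AKOC, and Xist at 0 CPM in 5 libraries and 0.0540 CPM in Quik-clot replicate 3. All 6 libraries thus carried Y-linked transcripts and next to no Xist. Of 13 genes of the growth hormone axis, 4 were higher (Stat5b, Stat5a, Socs2 and the receptor Ghr) and 1 lower at an unadjusted p under 0.05. Over all genes tested, 6.78% were higher and 5.69% lower at that p. The list median was 0.22, and none passed the edgeR adjustment. Stat5b, which relays growth hormone pulses, had 32.3, 34.9 and 37.1 CPM with Quik-clot and 40.4, 59.4 and 48.5 CPM with AKOC. Its target Socs2 had 7.22, 3.46 and 10.97 against 27.4, 13.3 and 16.6 CPM. Socs3, also named after its values were seen, lay lower with AKOC by a narrow margin, at 11.4 to 50.2 against 5.71 to 11.1 CPM (edgeR unadjusted p = 0.05002). The remaining genes of the list overlapped between dressings, among them Cish and Onecut1, which encodes HNF6, both named after their values were seen. Cish had 3.39, 1.95 and 12.8 against 5.16, 11.2 and 1.12 CPM. Onecut1 had 40.3, 19.8 and 88.8 against 118, 33.6 and 22.2 CPM, and was highest in AKOC replicate 1, where Cyp2c12 was lowest. The gene lower at an unadjusted p under 0.05 (edgeR), named after its values were seen, was Cux2, a female-biased repressor of male genes. Cux2 had 47.7, 2.36 and 26.9 against 2.63, 6.46 and 0.886 CPM. It was high in the same Quik-clot libraries as Cyp2c12 and low in Quik-clot replicate 2. What part these genes had in the P450 values was not tested.

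A sum over the 9 Cyp2c members is free of how reads were assigned among them, though not of reads that were discarded. The Cyp2c subfamily summed to 6047, 8065 and 4208 CPM with Quik-clot and 10508, 12440 and 13392 CPM with AKOC, a 1.98-fold difference of means without overlap. Without Cyp2c7 the sums were 4868, 6619 and 3047 against 7808, 6855 and 9583 CPM, with means 1.67-fold apart. After TMM scaling they did not overlap, by a narrow margin between Quik-clot replicate 2 and AKOC replicate 2. The TMM factors of those libraries were 1.069 and 0.904, and by library totals alone the groups overlapped. The 40 P450 members outside Cyp2c summed to 14128, 15703 and 7401 against 13423, 7958 and 11273 CPM, which overlapped. Cyp2c members differed in direction all the same, with 4 positive and 5 negative. Cyp2c6v1, a form present in both sexes, was the steadiest, at 384, 384 and 379 against 365, 407 and 364 CPM (log2 fold change -0.01 ± 0.12; edgeR adjusted p = 0.969). Cyp2c23, the main arachidonic acid epoxygenase of the subfamily, lay at 969 to 1998 and 1056 to 1486 CPM. Cyp2c24 was scarce, with 6.63, 5.04 and 1.78 against 5.30, 0.187 and 0.208 CPM.

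Members that foreign compounds induce through CAR and PXR are described next. Cyp2c55, a target of both receptors in rodents, had 9.03, 3.05 and 9.48 CPM with Quik-clot and 1.71, 1.25 and 0.365 CPM with AKOC, without overlap. Its log2 fold change was -2.69 ± 0.62 (edgeR unadjusted p = 0.0032, adjusted p = 0.281; DESeq2 adjusted p = 0.000427). Cyp3a62, an intestinal member of its subfamily, had 16.97, 6.53 and 18.6 against 6.78, 4.70 and 3.57 CPM (log2 fold change -1.48 ± 0.41; edgeR adjusted p = 0.308), with Quik-clot replicate 2 inside the AKOC range. In both genes Quik-clot replicate 2 was the lowest of its group. Cyp3a23-3a1, the classic dexamethasone-inducible form, had 1614, 1185 and 461 against 1019, 557 and 848 CPM and overlapped (log2 fold change -0.43 ± 0.45; edgeR adjusted p = 0.709). Cyp3a73 lay at 37.4 to 58.7 and 47.8 to 87.5 CPM. Of 16 tested targets of these receptors outside the P450s, 2 were higher (Gsta3 and Aldh1a1) and 2 lower (Ugt1a1 and Gadd45b) at an unadjusted p under 0.05, with a median of -0.11.

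Cyp2b1 and Cyp2b2, both strongly induced by phenobarbital, went opposite ways, and their promoters are shown because the genes are nearly alike. The windows are chr1:90645869-90646168, forward strand, for Cyp2b1 and chr1:90722031-90722330, forward strand, for Cyp2b2 (RefSeq, GRCr8), with capitals as above.
Cyp2b1: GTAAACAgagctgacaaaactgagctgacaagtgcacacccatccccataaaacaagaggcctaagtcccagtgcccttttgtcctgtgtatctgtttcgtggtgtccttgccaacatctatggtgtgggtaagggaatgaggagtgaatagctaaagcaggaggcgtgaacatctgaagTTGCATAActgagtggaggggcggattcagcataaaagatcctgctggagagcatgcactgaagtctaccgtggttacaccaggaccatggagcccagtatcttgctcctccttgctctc
Cyp2b2: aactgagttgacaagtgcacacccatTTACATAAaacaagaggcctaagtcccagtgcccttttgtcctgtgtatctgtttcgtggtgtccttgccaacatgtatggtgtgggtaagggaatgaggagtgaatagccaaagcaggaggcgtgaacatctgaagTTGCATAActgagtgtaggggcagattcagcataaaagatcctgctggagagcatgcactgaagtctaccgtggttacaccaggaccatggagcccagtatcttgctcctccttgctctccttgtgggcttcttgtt
The 2 windows were 97.2% identical over 283 aligned positions. Both held the same C/EBP match. A D-box match, read on the reverse strand as TTACATAA, occurred in Cyp2b2 alone among all member windows (0.893% of all windows).

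Cyp2b1 had 14.9, 2.31 and 4.32 CPM with Quik-clot and 2.29, 1.20 and 1.04 CPM with AKOC, a log2 fold change of -2.24 ± 0.69 (edgeR unadjusted p = 0.0139, adjusted p = 0.322). The groups did not overlap but nearly touched at Quik-clot replicate 2 and AKOC replicate 1, and the value was -1.13 without Quik-clot replicate 1. Cyp2b2 had 8.53, 14.5 and 10.8 against 9.85, 57.9 and 34.0 CPM, a log2 fold change of 1.59 ± 0.56 (edgeR unadjusted p = 0.0246, adjusted p = 0.361). AKOC replicates 2 and 3 were high and AKOC replicate 1 lay within the Quik-clot range. Without AKOC replicate 2 the log2 fold change of Cyp2b2 was 0.96 (edgeR unadjusted p = 0.0991). In FPKM, Cyp2b2 was 1.47, 16.0 and 6.37 times Cyp2b1 after Quik-clot and 11.0, 123 and 83.6 times after AKOC. These ratios depend on the annotated lengths. In Quik-clot replicate 1 the counts had the opposite order, with 684 for Cyp2b1 and 392 for Cyp2b2. Whether the pair shared reads was not tested. Cyp2b3, a form that phenobarbital does not induce, was far more abundant, at 447, 660 and 369 against 524, 612 and 747 CPM (log2 fold change 0.35 ± 0.25; edgeR adjusted p = 0.577). The sum of the 3 genes was therefore mostly Cyp2b3 and overlapped, at 471, 676 and 384 against 536, 671 and 782 CPM.

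Cyp2e1, which oxidises ethanol and acetone in hepatocytes around the central vein, was the most abundant member over all libraries. It had 6034, 3477 and 1913 CPM with Quik-clot and 2467, 1320 and 1707 CPM with AKOC. The groups overlapped through Quik-clot replicate 3, and the log2 fold change was -1.06 ± 0.47 (edgeR unadjusted p = 0.0575, adjusted p = 0.407) and -0.56 without Quik-clot replicate 1. Of 12 pericentral genes outside the members, 0 were higher and 3 lower at an unadjusted p under 0.05 (Slc1a2, Tbx3 and Lgr5), with a median of -0.36. Of 11 periportal genes, 1 was higher (Sdhd) and 2 lower (Arg1 and Asl), with a median of -0.25. Genes of both zones thus had negative medians, and the site of sampling within the lobule or liver was not tested.

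Arachidonic acid epoxygenases of the Cyp2j subfamily split. Cyp2j3 had 76.4, 78.2 and 46.4 CPM with Quik-clot and 150.0, 139 and 144 CPM with AKOC. All AKOC values lay above all Quik-clot values and within 1.08-fold of each other. Its log2 fold change was 1.11 ± 0.20, with the smallest p of all members (edgeR unadjusted p = 0.0008, adjusted p = 0.241; DESeq2 adjusted p = 0.000373). Its neighbour Cyp2j4 had 84.3, 37.0 and 46.0 against 34.4, 35.2 and 40.0 CPM, a log2 fold change of -0.61 ± 0.29 (edgeR adjusted p = 0.427) that rested largely on Quik-clot replicate 1 (-0.18 without it). Cyp2j10 was scarce, at 1.72 to 2.54 and 0.912 to 1.98 CPM. The Cyp2j sum did not overlap after TMM scaling, at 162, 117 and 94.9 against 186, 176 and 185 CPM. By library totals alone, and in summed FPKM, the groups overlapped through Quik-clot replicate 1.

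The Cyp2d subfamily, which oxidises many basic drugs, overlapped between dressings in all 5 members. Its sum was 1940, 1116 and 1354 CPM with Quik-clot and 1403, 1534 and 1814 CPM with AKOC. Cyp2d2 led it at 873, 570 and 647 against 729, 788 and 881 CPM (log2 fold change 0.20 ± 0.20; edgeR adjusted p = 0.699). Cyp2d3 lay at 196 to 355 and 318 to 325 CPM, Cyp2d5 at 107 to 322 and 150 to 319 CPM, and Cyp2d4 at 13.4 to 28.1 and 18.4 to 21.1 CPM. Cyp2d1 had 362, 167 and 237 against 181, 195 and 269 CPM (-0.25 ± 0.29; edgeR adjusted p = 0.740). Quik-clot replicate 1 was the highest Quik-clot library for all 5.

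5 further subfamilies of family 2 held 1 member each. Cyp2r1, a vitamin D hydroxylase, was even, at 13.4, 12.9 and 17.3 against 13.4, 14.2 and 17.3 CPM (log2 fold change 0.04 ± 0.17; edgeR adjusted p = 0.930). Cyp2f4, an enzyme best known from lung, had 20.7, 19.5 and 9.40 against 20.6, 26.2 and 41.3 CPM (log2 fold change 0.83 ± 0.35; edgeR unadjusted p = 0.0503, adjusted p = 0.400). Cyp2t1 had 12.9, 15.9 and 11.2 against 14.1, 16.0 and 26.8 CPM (0.51 ± 0.26; edgeR adjusted p = 0.457). Cyp2u1, a fatty acid hydroxylase, had 2.09, 4.15 and 1.70 against 3.12, 1.63 and 2.61 CPM (-0.11 ± 0.40; edgeR adjusted p = 0.920). Cyp2s1 had 1.41, 1.008 and 0.324 against 1.10, 0.934 and 0.495 CPM (-0.13 ± 0.55; edgeR adjusted p = 0.934). All 5 overlapped between dressings.

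Cyp4a genes, which hydroxylate the end of fatty acid chains and are classic targets of PPARA, showed no shared direction. Their sum was 726, 445 and 645 CPM with Quik-clot and 733, 529 and 538 CPM with AKOC. Cyp4a3 made up most of it, at 545, 316 and 491 against 597, 376 and 404 CPM (log2 fold change 0.03 ± 0.26; edgeR adjusted p = 0.973). Cyp4a1 had 160, 111 and 136 against 86.8, 134 and 124 CPM, and Cyp4a8 19.8, 15.4 and 16.3 against 32.1, 17.9 and 8.50 CPM. Their log2 fold changes were -0.24 ± 0.20 and 0.18 ± 0.42 (edgeR adjusted p = 0.629 and 0.871). Cyp4a2 stood at 17.3 CPM in AKOC replicate 1 against 0.881 to 1.88 CPM in the other libraries. Its log2 fold change of 1.97 ± 1.03 (edgeR adjusted p = 0.460) was -0.48 without that library. The promoter windows of Cyp4a2 and Cyp4a3 were 95.3% identical over 298 aligned positions, and whether the pair shared reads was not tested. Among 22 tested PPARA targets outside the P450s, 3 were higher (Acaa1b, Plin2 and Acadl) and 2 lower, Acot3 included, at an unadjusted p under 0.05, with a median of 0.03.

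The Cyp4f subfamily, whose enzymes inactivate leukotriene B4 and other lipids, had 6 of 8 members with positive log2 fold changes. Cyp4f6 had 35.9, 31.3 and 27.4 CPM with Quik-clot and 40.1, 44.7 and 56.3 CPM with AKOC, without overlap (log2 fold change 0.58 ± 0.16; edgeR unadjusted p = 0.0088, adjusted p = 0.312). Cyp4f39, whose mouse counterpart acts on very long fatty acids of the skin, had 3.20, 3.99 and 3.70 against 5.07, 6.75 and 13.4 CPM (1.21 ± 0.35; edgeR unadjusted p = 0.0105, adjusted p = 0.312). Cyp4f1, the most abundant of the subfamily and the neighbour of Cyp4f6, had 322, 363 and 200 against 369, 405 and 534 CPM (0.56 ± 0.25; edgeR unadjusted p = 0.0584, adjusted p = 0.407). These 3 genes had their highest value in AKOC replicate 3. Cyp4f4 lay on the other side, at 185, 136 and 142 against 109, 142 and 116 CPM (-0.34 ± 0.16; edgeR adjusted p = 0.434), and overlapped. The subfamily sum overlapped as well, at 554, 542 and 381 against 529, 613 and 733 CPM. Cyp4f17, Cyp4f5, Cyp4f18 and Cyp4f37 did not exceed 8.30 CPM in any library.

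Cyp4b1, a P450 best known for activating lung toxicants, had 17.7, 15.1 and 13.3 CPM with Quik-clot and 12.9, 10.04 and 11.3 CPM with AKOC. The groups did not overlap by a narrow margin, and the log2 fold change was -0.43 ± 0.16 (edgeR unadjusted p = 0.0281, adjusted p = 0.364). Cyp4v3, a fatty acid hydroxylase, had 258, 253 and 121 against 204, 266 and 175 CPM (0.03 ± 0.30; edgeR adjusted p = 0.975).

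The members varied more between libraries of one dressing than genes in general. Among 14 tested P450 genes of other families, 2 were higher and 3 lower at an unadjusted p under 0.05 (Cyp39a1 among the higher, Cyp1a1, Cyp8b1 and Cyp21a1 the lower), with a median of -0.36 and none past the edgeR adjustment. Within the members, the median ratio of the highest to the lowest library was 1.93 after Quik-clot and 1.84 after AKOC, against 1.38 and 1.30 over all genes tested. A ratio above 4 was found for 7 members after Quik-clot (5.27% of all genes tested) and for 9 after AKOC (4.07%). Genes with 0 counts in a library of that dressing had no ratio and were not counted as above 4, Cyp4f37 after AKOC included. Cyp2c11, Cyp2c12, Cyp3a2 and Cyp3a71-ps were in both sets. Cyp3a71-ps, whose symbol marks a pseudogene although the table lists it as protein-coding, had 1.96, 23.9 and 3.59 against 19.99, 3.44 and 2.22 CPM. It was high in Quik-clot replicate 2 and AKOC replicate 1, as was Cyp3a2, its neighbour in the RefSeq gene order.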

How the data were processed

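Gene expression was measured by RNA sequencing of 6 rat liver libraries, 3 per dressing, grouped by their labels. The deposited tables hold raw counts per gene and FPKM for the same genes. Per the submitters' processing notes, fastp, HISAT2 and HTSeq were used on the mRatBN7.2 build. The sources used here do not give versions, annotation or strand setting. The authors' deposited FPKM equal counts scaled to length and library total, within a relative spread of 1.12e-06. Genes were filtered with filterByExpr of edgeR 4.0.16 (minimum count 10, minimum total 15), scaled by TMM (factors 0.902 to 1.12) and tested with the two-sided quasi-likelihood F test, in a model with dressing alone. P-values were adjusted by Benjamini-Hochberg across the 13872 genes (called under 0.05). SE is the log2 fold change over the root of F. Lists are described by counts and medians. The tests were checked on simulated data. Where no difference was set between dressings, DESeq2 still called genes and edgeR called none, so DESeq2 calls need more caution. Where differences were set, edgeR missed more of the smallest ones than DESeq2, and both made some false calls. A lack of edgeR calls therefore does not show a lack of difference. The simulated counts used dispersions estimated by edgeR. Alternatives were DESeq2 1.42.0, limma-voom and limma-trend (limma 3.58.1), other scalings, filters, a replicate block and leaving out each library. Promoters came from RefSeq (GRCr8), found for 44 of 50 members. The members, gene lists and tests were chosen with earlier results of these data known. Given in full are Por, the 12 members of smallest p, the most abundant of each subfamily and a fixed panel. Other members are given by their levels. Up to 4 genes of smallest p in each list were named, plus a fixed few and those marked as named after their values were seen.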

Additional observations from a re-analysis of the deposited data

How the results depend on the processing

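The number of libraries, 3 per dressing, limits the precision, and depth limits it for Cyp4f18 and Cyp4f37, which had at most 26 counts in any library. DESeq2 called 280 genes, edgeR 0 and limma-voom 0, and the replicate block called 1 gene. The replicate numbers did not pair the samples (correlations of deviations -0.11, -0.14 and -0.25), and under the block 0 members were called. Leaving out single libraries gave 0 to 18 called genes, 0 of them members. Members at an unadjusted p under 0.05 then numbered 5 to 13 higher and 5 to 8 lower, and members without overlap 7 to 13 higher and 5 to 10 lower. In the same fits, 4.52% to 9.80% of all genes were higher and 3.10% to 7.59% lower at that p, and 13% to 18.7% and 12.8% to 17.3% did not overlap. The Cyp2j log2 ratio was 0.22 with summed FPKM, against 0.55.

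Of 37 genes given in full, 25 kept their direction under every alternative and 12 reversed in at least 1; the cause was not tested. With library totals alone, Cyp2r1 (-0.0254), Cyp4a3 (-0.0253) and Cyp4v3 (-0.0948) reversed. With limma-voom, Cyp2s1 (0.0185), Cyp3a18 (-0.0391), Cyp4a3 (-0.0731) and Cyp4a8 (-0.0941) did. With log2(FPKM + 1), Cyp2r1 (-0.0185), Cyp3a18 (-0.0349), Cyp4a3 (-0.0407) and Cyp4a8 (-0.0457) did, and with log2(FPKM + 0.1) the values were -0.0289, -0.0355, -0.0409 and -0.0785. Without single libraries, ranges that crossed 0 were -0.0741 to 0.0159 (Cyp2c6v1), -0.48 to 0.0913 (Cyp2d1), -0.075 to 0.19 (Cyp2r1), -0.52 to 0.33 (Cyp2s1), -0.34 to 0.37 (Cyp2u1), -0.38 to 0.52 (Cyp3a18), -0.52 to 1.70 (Cyp3a2), -0.21 to 0.57 (Cyp3a9), -0.48 to 2.49 (Cyp4a2), -0.21 to 0.19 (Cyp4a3), -0.38 to 0.54 (Cyp4a8) and -0.25 to 0.20 (Cyp4v3). The ranges of log2 ratios of subfamily sums were -0.03 to 0.25 (Cyp2a), 0.21 to 0.63 (Cyp2b), 0.78 to 1.24 (Cyp2c), -0.06 to 0.36 (Cyp2d), -1.38 to -0.56 (Cyp2e), 0.39 to 0.79 (Cyp2j), -0.48 to 0.81 (Cyp3a), -0.19 to 0.14 (Cyp4a), -0.53 to -0.32 (Cyp4b) and 0.19 to 0.45 (Cyp4f).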
